A study of Mus musculus with 6 samples.

Results

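The mitochondrial genome carries its own small set of genes, and the transcripts of these genes are described here in sorted mouse stem and progenitor cells. All genes of the deposited count table whose GENCODE M21 symbol begins with "mt-" were taken, which gave 37 genes of 45706. They were 2 genes for ribosomal RNA (rRNA), 13 for messenger RNA (mRNA) and 22 for transfer RNA (tRNA). On the plus strand lay 28 of them (2 rRNA, 12 mRNA and 14 tRNA genes), and on the minus strand 9 (mt-Nd6 and 8 tRNA genes). Both strands of the mitochondrial genome are transcribed into long precursor RNAs, and most mRNAs and rRNAs are released from these when the tRNAs that lie between them are cut out. The rRNAs form the core of the mitochondrial ribosome, which translates the mRNAs into subunits of the respiratory complexes I, III and IV and of the ATP synthase. In bone marrow, quiescent stem cells are known for relying less on respiration than the progenitors that arise from them.

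RNA-seq was performed on LSK cells (Lin-, Sca-1+, c-Kit+), the bone marrow compartment that holds hematopoietic stem cells and multipotent progenitors. The cells came from 6 male mice on a C57BL/6J background, with 1 library per mouse. The study asked how gene expression in these cells differs after deletion of Setd1b, which encodes a histone H3 lysine methyltransferase. Ctrl mice (n = 3) were labelled Setd1b HET (FD/+; RC/+) and carried 1 conditional allele, whereas cKO mice (n = 3) were labelled Setd1b HOM (FD/FD; RC/+) and carried the conditional allele on both chromosomes. All 6 mice also carried 1 copy of Rosa26-Cre-ERT2 (RC), a tamoxifen-dependent recombinase that is not limited to blood cells, and by the sample labels all were given 4.5 mg tamoxifen per day by gavage on 4 days and, after a pause of 3 days, on 2 further days. The methods of the study give a different number of doses. The Ctrl mice were thus exposed to Cre and tamoxifen as well and could lose 1 Setd1b allele. Cells were collected 3 days after the last dose, at an age of 16 weeks, except for 1 mouse labelled cKO (replicate 3) at 17 weeks. Libraries were made from total RNA with a strand-preserving kit, so that RNA without a poly(A) tail was also captured. The kit depletes ribosomal cDNA with probes, and whether these cover the mitochondrial rRNAs is not given in the sources used here.

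Total counts were 13003573, 21277519 and 16559472 in Ctrl libraries 1, 2 and 3, and 14512317, 15265730 and 14260925 in libraries 1, 2 and 3 labelled cKO. In all that follows, values of single libraries are given in this order. The numbers that the libraries carry in the deposited table fell into 2 series. Series 1 held Ctrl library 1 and libraries 1 and 2 labelled cKO, and series 2 held Ctrl libraries 2 and 3 and library 3 labelled cKO. Genotype was therefore unevenly spread over the series, and differences are also given within each series (1 library against 2), without a test. What the series stand for is not given in the sources used here. The study describes the mice as littermates, but the litter of each mouse is not given there either. Levels of single genes are given as CPM, counts per 1000000 counts of a library after scaling with TMM factors (trimmed mean of M values).

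Setd1b itself had 221, 194 and 223 CPM in the Ctrl libraries, and 272, 288 and 314 CPM in the libraries labelled cKO (log2 fold change 0.46, SE 0.07, BH-adjusted p = 0.00146 with edgeR's quasi-likelihood test). The targeted gene thus went against the label, since all 3 libraries labelled cKO were above all Ctrl libraries. The deposited count covers all exons of the gene while the deletion removes exon 5, so that this count does not show whether the exon was lost. BH stands for the Benjamini-Hochberg adjustment over all genes tested. The cells carried the RNA of their sort markers, with Kit at 514, 395 and 446 CPM in Ctrl and 438, 466 and 416 CPM in the libraries labelled cKO, and Ly6a (Sca-1) between 35.8 and 56.2 CPM in all 6.

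The 37 mitochondrial genes took 9.90%, 9.43% and 9.42% of all counts in the Ctrl libraries (9.58% ± 0.273, SD, n = 3) and 10.2%, 10.4% and 9.19% in the libraries labelled cKO (9.94% ± 0.665, n = 3). The groups overlapped, and the libraries of series 1 (mean 10.2%) stood above those of series 2 (mean 9.35%). The log2 ratio of the group means was 0.05, with 0.06 within series 1 and -0.04 within series 2. Depth did not limit these shares, since the 95% Wilson interval of a single library was at most 0.0325 percentage points wide. These intervals cover counting error only. No p-value is given for a sum over the genes, and an exact two-sided permutation test of 3 mice against 3 could not go below 0.1. In bulk RNA, fewer cells of a type and less RNA per cell cannot be told apart.

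Most of these counts came from the rRNAs, with 88.1%, 87.6% and 87.8% of the mitochondrial counts in Ctrl and 89.1%, 89.3% and 88.9% in the libraries labelled cKO. The share of rRNA in all counts was 8.72%, 8.26% and 8.28% in Ctrl and 9.08%, 9.33% and 8.17% in the libraries labelled cKO. The mRNAs took 1.17%, 1.15% and 1.13% in Ctrl (1.15% ± 0.0192) and 1.11%, 1.11% and 1.01% in the libraries labelled cKO (1.07% ± 0.0595). For rRNA the groups overlapped, while for mRNA every library labelled cKO was below every Ctrl library, by less than 0.1 on the log2 scale in series 1 (-0.08) and by more in series 2 (-0.18). Over all libraries the log2 ratio of the mRNA shares was -0.10, and it was -0.05 without library 3 labelled cKO. The tRNAs took 0.00782%, 0.0203% and 0.0143% in Ctrl and 0.00689%, 0.00949% and 0.0109% in the libraries labelled cKO, so that the 3 libraries of series 2 were the 3 highest. The widest 95% Wilson interval of a library was 0.0307 percentage points for rRNA, 0.0117 for mRNA and 0.00121 for tRNA.

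**Figure D1:**
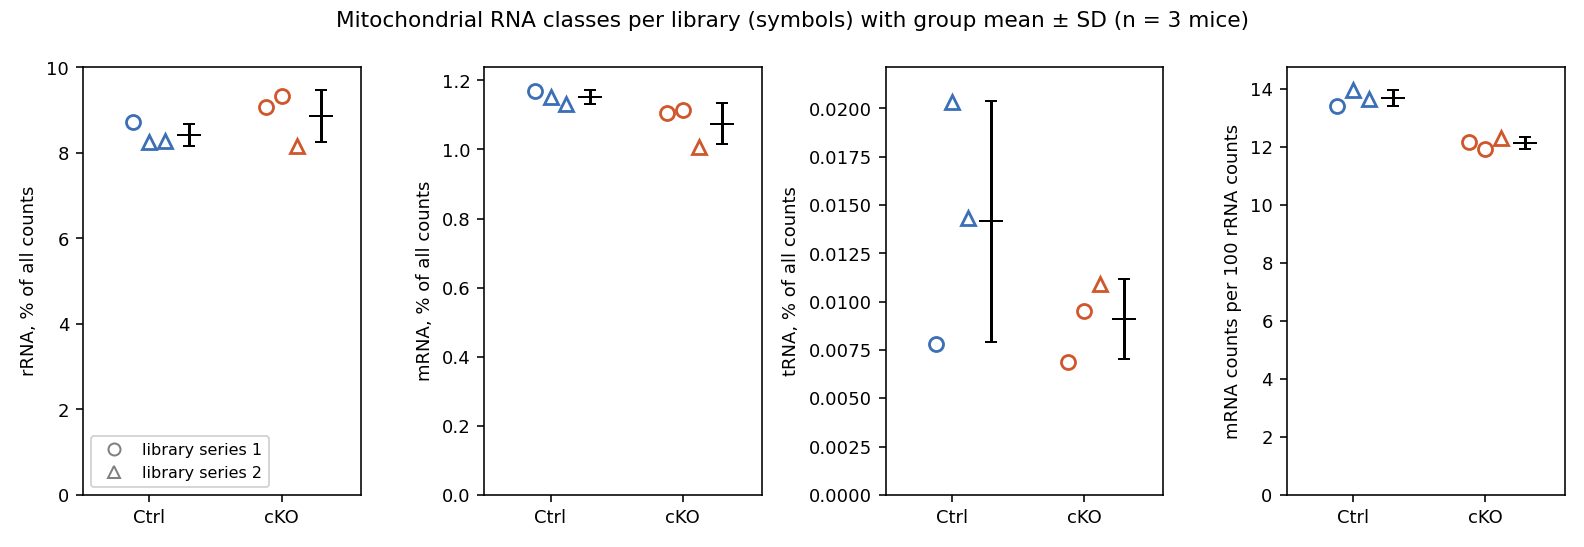
Share of rRNA, mRNA and tRNA of the mitochondrial genome in all counts (percent) and mRNA counts per 100 rRNA counts, with 1 symbol per library (circles, library series 1; triangles, library series 2) and the mean ± SD of each group beside them (n = 3 mice). The mRNA counts per 100 rRNA counts lay between 13.4 and 14.0 in Ctrl and between 11.9 and 12.3 in the libraries labelled cKO, whereas the tRNA shares separated by series.

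Relative to the rRNAs, the mRNAs were lower in the libraries labelled cKO. In Ctrl there were 13.4, 14.0 and 13.7 mRNA counts per 100 rRNA counts (13.7 ± 0.269, n = 3), against 12.2, 11.9 and 12.3 in the libraries labelled cKO (12.1 ± 0.196, n = 3). All 3 Ctrl libraries were above all libraries labelled cKO, and the gap between the nearest libraries was larger than the SD of either group. The log2 ratio of the means was -0.17, and it was -0.15 within series 1 and -0.17 within series 2. This ratio does not depend on the nuclear counts of a library. It does depend on the mitochondrial rRNA counts left after the kit's depletion of ribosomal cDNA. Whether this depletion reached the mitochondrial rRNAs, and to a different degree in each library, was not tested. Of the 7 mRNAs with at least 1000 counts in every library, 6 had every library labelled cKO below every Ctrl library when set against the rRNA counts, compared with 12.9% of all genes tested by the same measure. mt-Nd5, for instance, had 27.8, 27.3 and 27.1 counts per 1000 rRNA counts in Ctrl and 23.3, 23.4 and 23.9 in the libraries labelled cKO. The exception was mt-Nd6, with 1.19, 1.24 and 1.37 against 1.23, 1.09 and 1.27.

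Of the 37 genes, 25 passed the filter on low counts and were tested (2 rRNA, 12 mRNA and 11 tRNA genes), within a fit of 15184 genes. With edgeR's quasi-likelihood test, 3 of the 25 passed a BH-adjusted p of 0.05 and had their lower values in the libraries labelled cKO, namely mt-Nd2, mt-Nd5 and mt-Ti, while 3.79% of all genes tested were called lower. None was called higher (3.88% of all genes tested), none had an unadjusted p under 0.05 in that direction, and DESeq2 called none higher either. Over both directions 7.67% of all genes were called, 575 lower and 589 higher. This split was 356 to 820 without TMM factors and 856 to 525 with the trend on gene length removed. An unadjusted p under 0.05 was found for 11 of the 25, all lower, compared with 11.5% of all genes tested in that direction. In 8 of the 25, every library labelled cKO was below every Ctrl library, compared with 13.4% of all genes tested. The fitted log2 fold change was below 0 in 22 of the 25 (median -0.23), whereas the median over all genes tested was 0.00.

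The calls changed when 1 library was left out. No mitochondrial gene was called lower without library 1, 2 or 3 labelled cKO or without Ctrl library 3, 1 was called without Ctrl library 2, and 7 without Ctrl library 1 (mt-Nd1, mt-Nd2, mt-Ti, mt-Tv, mt-Tg, mt-Tt and mt-Tp). Calls over all genes also fell, from 1164 to between 604 and 880, in the 5 fits other than that without Ctrl library 1. Of all genes tested, 594 of 15645 were called lower without Ctrl library 1 and 438 of 15518 without Ctrl library 2. Without library 1, 2 or 3 labelled cKO, 400, 308 and 394 genes were called lower, and 340 without Ctrl library 3. DESeq2 called 5 genes lower, adding mt-Nd1 and mt-Cytb, and without TMM factors none was called. Of all 15184 genes tested, DESeq2 called 691 lower and 642 higher, and 356 were called lower without TMM factors.

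**Figure D2:**
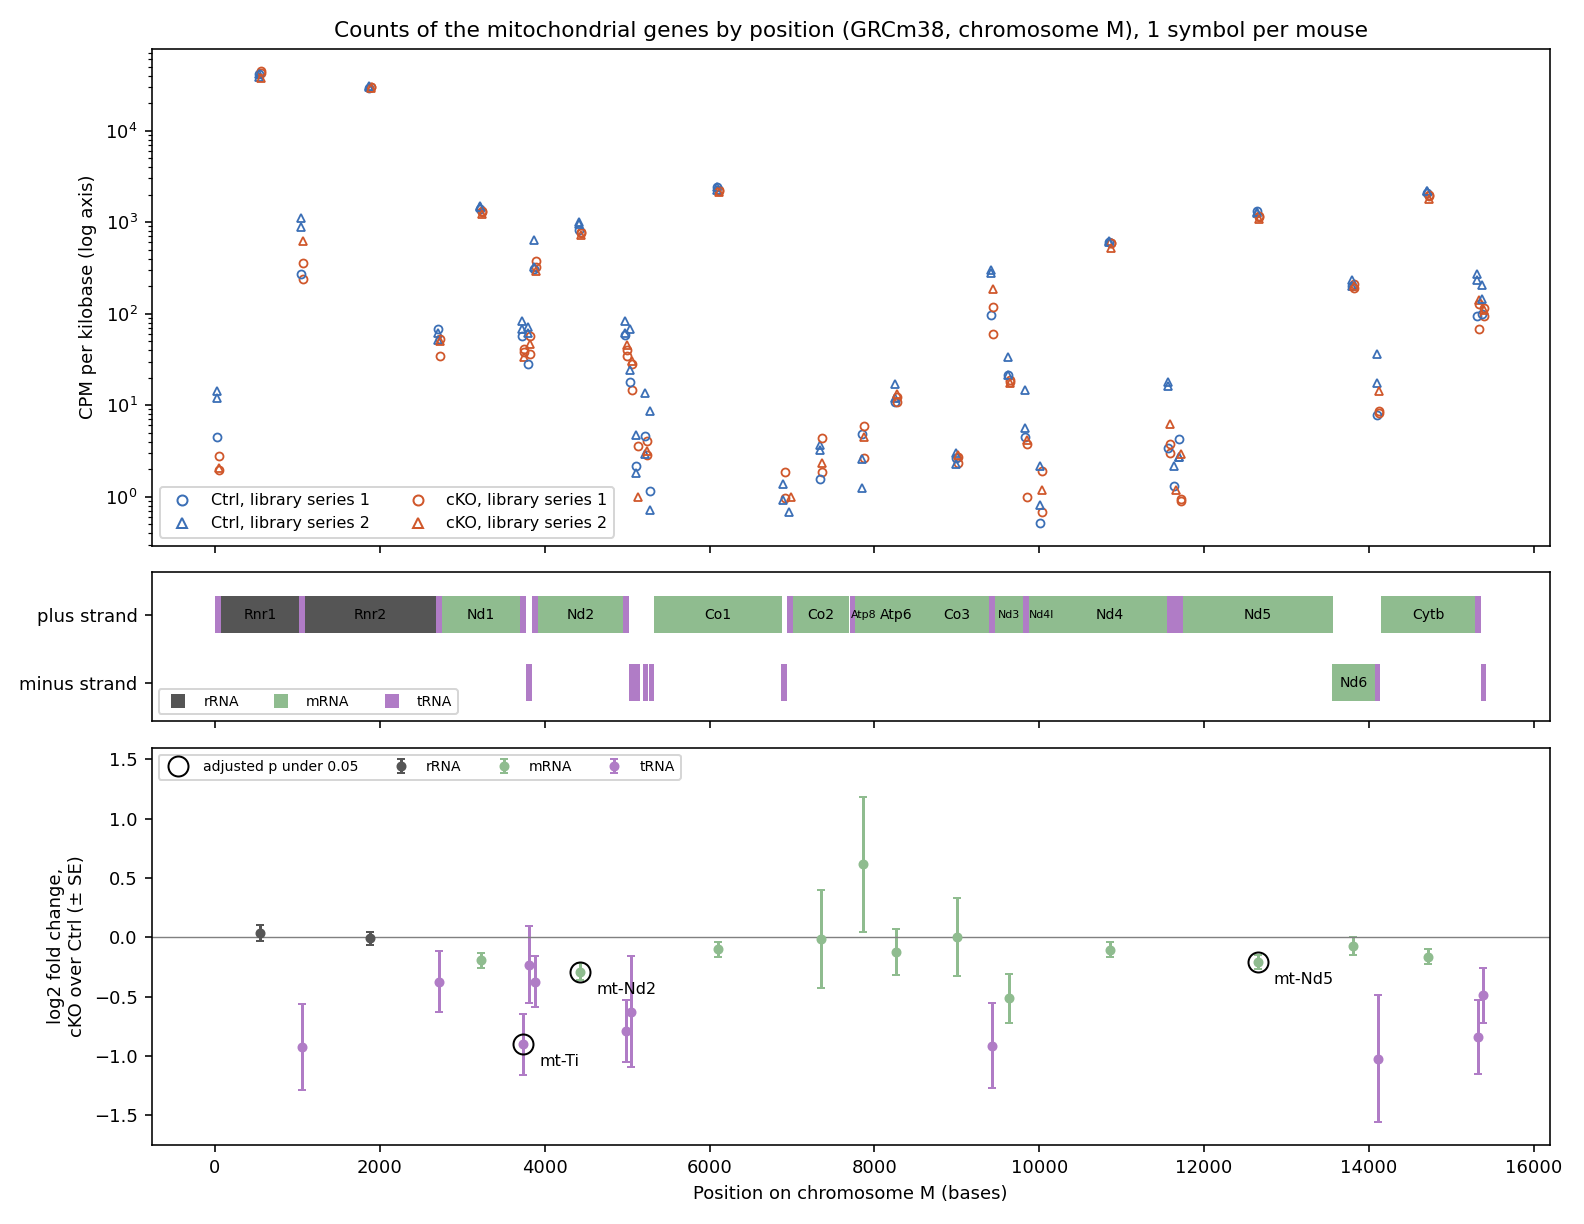
Mitochondrial genes by position on chromosome M (GRCm38). Top, CPM per kilobase on a log axis with 1 symbol per mouse (blue, Ctrl; red, labelled cKO; circles, library series 1; triangles, series 2), libraries with 0 counts not drawn; middle, genes by strand; bottom, log2 fold change of the 25 tested genes (labelled cKO over Ctrl, error bars SE), with circles around the 3 genes at an adjusted p under 0.05.

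The rRNAs lie at chrM:70-1024 (mt-Rnr1, the small subunit rRNA) and chrM:1094-2675 (mt-Rnr2, the large subunit rRNA), both on the plus strand and separated only by mt-Tv. mt-Rnr1 had 40163, 36856 and 39559 CPM in Ctrl and 41090.3, 42498 and 36008 CPM in the libraries labelled cKO (log2 fold change 0.04, SE 0.07). mt-Rnr2 had 46607, 46883 and 48142 CPM in Ctrl and 47179.5, 47962 and 45734 CPM in the libraries labelled cKO (log2 fold change -0.01, SE 0.06). Neither was called (BH-adjusted p = 0.806 and 0.958 with edgeR's quasi-likelihood test), neither had an unadjusted p under 0.05, DESeq2 called neither, and the groups overlapped in both. The highest and the lowest value of mt-Rnr1 were both in libraries labelled cKO, in replicate 2 and in replicate 3. There were 1.16, 1.27 and 1.22 counts of mt-Rnr2 per count of mt-Rnr1 in Ctrl and 1.15, 1.13 and 1.27 in the libraries labelled cKO. This ratio was lower in each library of series 1 than in each library of series 2.

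Per kilobase of gene length, the rRNAs stood far above the mRNAs. In Ctrl, mt-Rnr1 was at 40690.2 CPM per kilobase (SD 1844) and mt-Rnr2 at 29842 (SD 517), against 2359 (SD 107) for mt-Co1 and 2135 (SD 64.7) for mt-Cytb. With the deposited lengths used here, next in order came mt-Nd1 with 1458 CPM per kilobase, mt-Nd5 with 1294, mt-Nd2 with 927, mt-Nd4 with 611 and mt-Nd6 with 210.1. Among these 9 genes the ranges of neighbours in the order did not overlap in the 3 Ctrl libraries. When only the windows of 75 bases not found in another gene were taken as length, an alternative chosen after seeing the data, mt-Nd4 (1676 CPM per kilobase) stood above mt-Nd1 (1580.3), mt-Nd5 (1371) and mt-Nd2 (1059), and mt-Co1 rose to 4118. With this length mt-Atp6 (2996), mt-Co3 (2064.5), mt-Nd3 (1475.5) and mt-Co2 (649) also came among the better covered mRNAs, though they kept only 3, 1, 6 and 3 windows. The order therefore depends on the length used for the genes with nuclear copies. With the deposited lengths, the other 6 mRNAs were all below 26 CPM per kilobase in the mean of Ctrl. All but mt-Atp8 have near-identical annotated copies in the nuclear genome, and nuclear sequence outside annotated transcripts was not searched.

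Complex I, the NADH dehydrogenase, receives 7 subunits from the mitochondrial genome, of which 6 were tested, 2 were called lower (3.79% of all genes tested were) and none higher (none by DESeq2 either). At an unadjusted p under 0.05 there were 4, all lower, against 11.5% of all genes tested. mt-Nd2, a subunit of its membrane arm at chrM:3914-4951, had 858, 1045 and 983 CPM in Ctrl (962 ± 95.4, n = 3) and 806, 797 and 758 CPM in the libraries labelled cKO (787 ± 25.5, n = 3). It fell to 0.818 of the Ctrl level (log2 fold change -0.29, SE 0.07, BH-adjusted p = 0.0234 with edgeR's quasi-likelihood test). The groups did not overlap, but Ctrl library 1 was closer to the libraries labelled cKO than to the other Ctrl libraries. Within series the log2 difference was -0.10 in series 1 and -0.42 in series 2, and the call was kept when series entered the fit as a covariate (log2 fold change -0.26, BH-adjusted p = 0.0397 with edgeR's quasi-likelihood test). Leaving out any 1 library other than Ctrl library 1 ended the call, with log2 fold changes between -0.31 and -0.23 and adjusted p between 0.0576 and 0.0892, and over all alternatives adjusted p lay between 0.000393 and 0.0892.

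mt-Nd5, another membrane subunit at chrM:11742-13565 and the longest mitochondrial gene, had 2414, 2284 and 2381 CPM in Ctrl (2359.7 ± 67.5) and 2055, 2122 and 1951 CPM in the libraries labelled cKO (2043 ± 86.0). It fell to 0.866 of the Ctrl level (log2 fold change -0.21, SE 0.06, BH-adjusted p = 0.0479 with edgeR's quasi-likelihood test). All libraries labelled cKO were below all Ctrl libraries, and the log2 difference was -0.21 within series 1 and -0.26 within series 2. The call was lost without any 1 library other than Ctrl library 2 (log2 fold changes between -0.24 and -0.18, adjusted p up to 0.124) and with at least 10 counts asked for in every library (adjusted p = 0.0583), and was kept with series as a covariate (adjusted p = 0.0178, all from edgeR's quasi-likelihood test). Over all alternatives adjusted p lay between 0.00381 and 0.225.

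The other complex I mRNAs were not called. mt-Nd1 (chrM:2751-3707) had 1327, 1441 and 1418 CPM in Ctrl and 1228, 1252 and 1182 CPM in the libraries labelled cKO, without overlap (log2 fold change -0.19, SE 0.06, BH-adjusted p = 0.0669 with edgeR's quasi-likelihood test). It was called without Ctrl library 1 (BH-adjusted p = 0.0400 with edgeR's quasi-likelihood test), and over all alternatives adjusted p lay between 0.0104 and 0.265. mt-Nd4 (chrM:10167-11544) had 835, 859.5 and 829.8 CPM in Ctrl and 819, 809.7 and 720.0 CPM in the libraries labelled cKO (log2 fold change -0.10, SE 0.06). Here, too, the groups were separate, though 2 of the libraries labelled cKO were within 21 CPM of the lowest Ctrl library, and the log2 fold change was -0.05 without library 3 labelled cKO. mt-Nd3 (chrM:9459-9806) had 7.35, 11.7 and 7.49 CPM in Ctrl and 6.50, 6.16 and 6.10 CPM in the libraries labelled cKO (log2 fold change -0.51, SE 0.21), which rests on 87 to 246 counts per library and was -0.25 without Ctrl library 2. mt-Nd4l was not tested, with 2 to 10 counts per library.

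mt-Nd6 is the only mRNA on the minus strand (chrM:13552-14070) and also encodes a complex I subunit. It had 103, 104 and 120.0 CPM in Ctrl and 109, 98.9 and 104 CPM in the libraries labelled cKO (log2 fold change -0.07, SE 0.07, BH-adjusted p = 0.626 with edgeR's quasi-likelihood test). The groups overlapped, with 2 of the Ctrl libraries within the range of those labelled cKO and Ctrl library 3 above it. Per length, mt-Nd6 stood at 9.65%, 9.24% and 10.6% of its plus-strand neighbour mt-Cytb in Ctrl, and at 10.8%, 9.57% and 11.1% in the libraries labelled cKO. Set against the summed counts of mt-Nd1, mt-Nd2, mt-Nd5 and mt-Cytb, it gave 1.48, 1.43 and 1.65 counts per 100 in Ctrl and 1.73, 1.53 and 1.74 in the libraries labelled cKO, which overlapped. The genes of the minus strand together held 0.116%, 0.137% and 0.138% of the mitochondrial counts in Ctrl and 0.121%, 0.112% and 0.128% in the libraries labelled cKO, with a 95% Wilson interval at most 0.0122 percentage points wide.

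Cytochrome b, encoded by mt-Cytb (chrM:14145-15288), is the mitochondrially encoded subunit of complex III. Its level was 2357, 2478 and 2491 CPM in Ctrl and 2210.1, 2278 and 2055 CPM in the libraries labelled cKO, without overlap (log2 fold change -0.16, SE 0.06, BH-adjusted p = 0.129 with edgeR's quasi-likelihood test). Of the complex IV (cytochrome c oxidase) subunits, mt-Co1 (chrM:5328-6872) had 3734, 3454 and 3746 CPM in Ctrl and 3507, 3413 and 3275 CPM in the libraries labelled cKO (log2 fold change -0.10, SE 0.06), with library 1 labelled cKO above Ctrl library 2. The other complex IV subunits, mt-Co2 and mt-Co3, had 14 to 53 and 27 to 49 counts per library, and the ATP synthase subunits mt-Atp8 and mt-Atp6 had 4 to 19 and 96 to 180. For these 4 genes the log2 fold changes (-0.01, 0.00, 0.62 and -0.12) had standard errors of 0.41, 0.33, 0.57 and 0.20, so that a difference of the size seen for mt-Nd2 is less than 2 SE for each of them. Among the 7 mRNAs with at least 1000 counts in every library, library 3 labelled cKO was the lowest of the 6 libraries in 6, and the median log2 fold change was -0.16. Over all 12 mRNAs tested it was -0.11.

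Within the mRNA counts the proportions were similar in the groups. mt-Co1 made up 32.1%, 29.6% and 31.2% of the mRNA counts in Ctrl and 32.6%, 31.6% and 32.5% in the libraries labelled cKO. mt-Nd5 made up 20.7%, 19.5% and 19.9% in Ctrl and 19.1%, 19.7% and 19.4% in the libraries labelled cKO. For mt-Nd2 these values were 7.37%, 8.94% and 8.20% against 7.49%, 7.39% and 7.53%, so that Ctrl libraries 2 and 3 stood above the other 4 libraries and Ctrl library 1 below all of them. None of the 7 well covered mRNAs had separate groups by this measure.

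The tRNA genes are 59 to 75 bases long, whereas the reads had 75 bases, and reads that touched more than 1 gene on the same strand were not counted. A read aligned over its whole length can be counted for such a gene only where the sequence beside it is free of genes on that strand, or where the read fits the gene exactly. By the coordinates, 8 of the 22 tRNA genes allow no such placement (mt-Tf, mt-Tv, mt-Tk, mt-Tg, mt-Tr, mt-Th, mt-Ts2 and mt-Tl2), mt-Tl1 allows 1, and 13 allow more. Counts were nonetheless found for genes without a placement. mt-Tv, between the rRNAs at chrM:1025-1093, had 246, 1614 and 960 counts in Ctrl and 249, 389 and 608 in the libraries labelled cKO, the largest sum over the 6 libraries among the tRNA genes. mt-Tg (chrM:9391-9458) had 87, 429 and 294 counts in Ctrl and 61, 126 and 181 in the libraries labelled cKO. The length over which the counted reads were aligned was not analysed here, so that counts of tRNA genes are not a measure of the mature tRNAs, and their levels are not compared with those of other genes.

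Of the 22 tRNA genes, 11 were tested and 1 was called lower (3.79% of all genes tested were), mt-Ti, the isoleucine tRNA gene at chrM:3706-3774 on the plus strand. It had 3.98, 5.67 and 4.74 CPM in Ctrl (4.80 ± 0.848, n = 3) and 2.81, 2.60 and 2.31 CPM in the libraries labelled cKO (2.58 ± 0.251, n = 3), from 33 to 119 counts per library. All libraries labelled cKO were below all Ctrl libraries. The log2 fold change was -0.90 (SE 0.26, BH-adjusted p = 0.0449 with edgeR's quasi-likelihood test), with -0.55 within series 1 and -1.17 within series 2. With series as a covariate the log2 fold change was -0.86, but the call was lost (BH-adjusted p = 0.0888 with edgeR's quasi-likelihood test), as it was with the length trend removed (log2 fold change -0.60, adjusted p = 0.183) and without any 1 library other than Ctrl library 1 (log2 fold changes between -0.97 and -0.76, adjusted p between 0.0901 and 0.161). Over all alternatives the adjusted p lay between 0.0349 and 0.183.

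The tryptophan tRNA gene mt-Tw was the other tested tRNA gene without overlap, with 3.90, 5.62 and 4.16 CPM in Ctrl and 2.68, 2.29 and 3.02 CPM in the libraries labelled cKO (log2 fold change -0.79, SE 0.26, BH-adjusted p = 0.0868 with edgeR's quasi-likelihood test). The fitted values of mt-Tv (-0.92), mt-Tg (-0.91), mt-Tt (-0.84), mt-Te (-1.02), mt-Ta (-0.62), mt-Tp (-0.49), mt-Tl1 (-0.37), mt-Tm (-0.37) and mt-Tq (-0.23) did not pass the test, and their groups overlapped. Without Ctrl library 1, which was low in most of them, mt-Tv (-1.31), mt-Tg (-1.25), mt-Tt (-1.16) and mt-Tp (-0.70) were called lower. Of all genes tested in that fit, 594 of 15645 were called lower. Without Ctrl library 2, the values of mt-Tv (-0.54), mt-Te (-0.31) and mt-Tp (-0.18) moved towards 0, and those of mt-Ta (0.22), mt-Tm (0.07) and mt-Tq (0.04) changed sign. Ctrl library 2 was the highest of the 6 libraries in 10 of the 11 tested tRNA genes, mt-Tl1 being the exception. The median log2 fold change of the 11 was -0.79. It was -0.39 with series as a covariate and -0.35 without Ctrl library 2.

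The tRNA counts also differed between the library series. The log2 ratio of the tRNA shares of all counts was -0.64 over all libraries, 0.07 within series 1 and -0.67 within series 2. It was -0.28 without Ctrl library 2 and -0.93 without Ctrl library 1. The mean share was 0.00807% in series 1 and 0.0152% in series 2. Gm42418, a transcript annotated over nuclear rRNA sequence, likewise took 2.84% of all counts in Ctrl library 1 and 2.22% and 2.27% in libraries 1 and 2 labelled cKO (series 1), against 5.60% and 6.98% in Ctrl libraries 2 and 3 and 5.11% in library 3 labelled cKO (series 2). The part of library composition in the tRNA values was not tested. Of 10 abundant noncoding RNAs, which included Gm42418, 9 were in the table and 8 were tested, and Malat1 (log2 fold change 0.29, SE 0.08, BH-adjusted p = 0.0413 with edgeR's quasi-likelihood test) was the 1 called, higher, where 3.88% of all genes tested were called higher. Within series the log2 difference of Malat1 was 0.07 in series 1 and 0.46 in series 2. DESeq2 called 1 of these noncoding RNAs lower and 1 higher. Gm42418 was the largest part of their summed level in all libraries except library 1 labelled cKO, where Gm26917 was larger (26627 against 21603 CPM). The summed level was 66795, 91507 and 110676 CPM in Ctrl and 62963, 58959.8 and 91725 CPM in the libraries labelled cKO.

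By strand, 7 of the 14 tRNA genes of the plus strand and 4 of the 8 of the minus strand were tested, with median log2 fold changes of -0.84 and -0.56. The minus strand held 14.0%, 13.2% and 11.7% of the tRNA counts in Ctrl and 16.1%, 16.3% and 12.8% in the libraries labelled cKO. These shares overlapped between the groups. The other 11 tRNA genes, which were not tested, had at most 23 counts in any library. mt-Tk had 0 counts in all 6 libraries, where 3 counts, taken as the limit that a count of 0 allows, correspond to 0.141 to 0.231 CPM before TMM scaling. As mt-Tk is among the genes without a placement, this limit holds for its counts and not for its RNA. mt-Td, mt-Ts2 and mt-Ts1 followed with at most 2 counts in any library.

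The sequences of mt-Ti and mt-Tw, the tested tRNA genes without overlap between the groups, and of mt-Tv and mt-Tg, which have no placement, are given to show how closely they adjoin their neighbours. They are the GENCODE M21 transcripts (GRCm38), all on the plus strand, 5′ to 3′, and capitals mark bases that also belong to another gene of the same strand. The first bases of mt-Ti are the last bases of mt-Nd1, and those of mt-Tw the last bases of mt-Nd2. mt-Tv (chrM:1025-1093) and mt-Tg (chrM:9391-9458) share no base with a neighbour but adjoin genes of the same strand on both sides.
mt-Ti: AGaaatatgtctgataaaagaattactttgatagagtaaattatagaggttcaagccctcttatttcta
mt-Tw: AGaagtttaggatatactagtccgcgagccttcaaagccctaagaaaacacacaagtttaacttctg
mt-Tv: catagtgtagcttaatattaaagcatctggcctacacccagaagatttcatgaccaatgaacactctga
mt-Tg: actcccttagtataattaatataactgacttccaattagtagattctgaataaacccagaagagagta

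An overlap on the same strand also takes up part of mt-Atp8 (chrM:7766-7969), whose last 43 bases are the first bases of mt-Atp6. They are in capitals in its sequence, which is shown because reads that reach them were counted for neither gene. A read of 75 bases has 88 start positions at which it touches mt-Atp8 and no other gene of the plus strand, compared with 1614 for mt-Co1.
mt-Atp8: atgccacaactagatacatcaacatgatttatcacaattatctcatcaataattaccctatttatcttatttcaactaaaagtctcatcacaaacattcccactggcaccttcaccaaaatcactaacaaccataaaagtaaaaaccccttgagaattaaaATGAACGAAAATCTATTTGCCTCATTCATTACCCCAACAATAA

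Of the 13 mRNAs, 9 share sequence with annotated nuclear copies, pseudogenes that arose from mitochondrial DNA. Windows of 75 bases of each mRNA were looked up in all other GENCODE M21 transcripts on either strand. Of the windows of mt-Co2, 99.5% were found in another gene, as were 99.5% for mt-Atp6, 99.9% for mt-Co3, 98.7% for mt-Nd4l, 97.8% for mt-Nd3, 61.5% for mt-Nd4, 39.8% for mt-Co1, 5.7% for mt-Nd2 and 1.7% for mt-Nd5. No window of mt-Nd1, mt-Nd6, mt-Cytb, mt-Atp8 or the rRNAs was. Most copies form 1 block of 7 pseudogenes on the minus strand of chromosome 1, between 24611535 and 24616197, in the same order as on the mitochondrial genome. mt-Atp8 lies between mt-Co2 and mt-Atp6, whose copies are both in this block. Nuclear sequence outside annotated transcripts was not searched. Whether the block holds more of mt-Atp8 than the bases shared with mt-Atp6 was therefore not tested, and its low counts are uncertain as well.

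In this block the counts of the copy exceeded those of the mitochondrial gene wherever nearly all windows were shared, except for mt-Nd3. Gm28661 had 510 to 791 counts per library against 14 to 53 for mt-Co2, with 681 of 681 aligned bases identical. Gm10925 had 2051 to 3951 counts against 96 to 180 for mt-Atp6 (678 of 678 bases identical), and Gm28437 had 440 to 825 counts against 27 to 49 for mt-Co3 (783 of 783 identical). Gm10222 had 187 to 288 counts against 2 to 10 for mt-Nd4l. For mt-Nd3 the order was the other way, with 61 to 126 counts for Gm28438 and 87 to 246 for the mitochondrial gene. The low counts of these mRNAs are therefore uncertain, since reads from identical sequence cannot be assigned to the mitochondrial or the nuclear copy. All copies together held 0.0410%, 0.0445% and 0.0474% of all counts in Ctrl and 0.0404%, 0.0410% and 0.0427% in the libraries labelled cKO, with overlap.

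The first 60 bases of mt-Co2 (chrM:7013-7072, plus strand) and of Gm28661 (chr1:24615506-24615565, minus strand) show such an identical pair, from GENCODE M21 transcripts (GRCm38), 5′ to 3′ on the strand of each gene. No base is in capitals, as none differs.
mt-Co2: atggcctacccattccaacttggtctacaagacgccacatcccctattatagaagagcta
Gm28661: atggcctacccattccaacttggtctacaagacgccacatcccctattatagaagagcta

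mt-Nd3 and Gm28438 differed at 1 of 345 aligned bases (T3C, the mitochondrial base first, with positions counted from 1 at the first base of the mitochondrial gene). The base is in capitals in the first 60 bases of mt-Nd3 (chrM:9459-9518, plus strand) and of Gm28438 (chr1:24613060-24613119, minus strand), taken from the same transcripts.
mt-Nd3: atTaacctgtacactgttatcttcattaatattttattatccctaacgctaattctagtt
Gm28438: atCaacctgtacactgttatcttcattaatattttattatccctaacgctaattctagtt

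The block ends within mt-Co1. Gm29216 aligned to bases 1054 to 1545 of mt-Co1 with 6 substitutions, all near its start (T1056A, C1057T, A1059G, A1060G, C1062A and A1066T, with positions counted from 1 at the first base of mt-Co1). Its counts, 748 to 1243 per library, were far below those of mt-Co1, 46690 to 72460. The differing bases are in capitals in the first 60 aligned bases of mt-Co1 (chrM:6381-6440, plus strand) and of Gm29216 (chr1:24616138-24616197, minus strand).
mt-Co1: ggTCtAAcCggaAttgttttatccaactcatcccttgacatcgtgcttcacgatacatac
Gm29216: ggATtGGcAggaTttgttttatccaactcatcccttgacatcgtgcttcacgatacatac

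Nuclear genes for mitochondrial RNA and DNA, together with upstream regulators of mitochondrial biogenesis, were examined as a list of 73, all of which were tested. With edgeR's quasi-likelihood test 4 were called lower in the libraries labelled cKO and 0 higher (Rexo2, Tbrg4, Nsun2 and the upstream regulator Myc), where 3.79% of all genes tested were called lower. At an unadjusted p under 0.05, 9 of the 73 were lower, close to the share of 11.5% among all genes tested, and 1 higher, and DESeq2 called 4 lower and 0 higher. The median log2 fold change of the 73 was -0.08, and 13 had every library labelled cKO below every Ctrl library, where 13.4% of all genes tested did.

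Of 14 genes for transcription and replication, 0 were called in either direction with edgeR or DESeq2 (1 with an unadjusted p under 0.05, lower). Polrmt, the mitochondrial RNA polymerase, had 39.0, 36.9 and 50.6 CPM in Ctrl and 36.0, 40.8 and 40.4 CPM in the libraries labelled cKO (log2 fold change -0.11, SE 0.11). For its initiation factors Tfam and Tfb2m and the elongation factor Tefm the log2 fold changes were 0.02, -0.20 and 0.17, with standard errors of 0.11, 0.18 and 0.18, and the groups overlapped.

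Of 17 genes for poly(A) addition, stability and decay, 2 were called lower and 0 higher, against 3.79% and 3.88% of all genes tested. Rexo2, an exonuclease for short RNA oligonucleotides, had 76.8, 75.1 and 93.1 CPM in Ctrl and 64.9, 57.9 and 53.9 CPM in the libraries labelled cKO, without overlap (log2 fold change -0.47, SE 0.10, BH-adjusted p = 0.00639 with edgeR's quasi-likelihood test). Tbrg4 (also called Fastkd4), of the FASTK family of mitochondrial RNA-binding proteins, had 54.2, 59.5 and 54.5 CPM in Ctrl and 39.3, 43.0 and 50.3 CPM in the libraries labelled cKO (log2 fold change -0.34, SE 0.10, BH-adjusted p = 0.0410 with edgeR's quasi-likelihood test). The call of Rexo2 was kept without any 1 library. When 1 library was left out, that of Tbrg4 was kept only without library 3 labelled cKO (adjusted p = 0.0142). It was lost without each of the other 5 (log2 fold changes between -0.37 and -0.27, adjusted p up to 0.158). Tbrg4 also lost its call with series as a covariate (-0.29, adjusted p = 0.0708) and without TMM factors (-0.29, adjusted p = 0.0916, all from edgeR's quasi-likelihood test). Over all alternatives its adjusted p lay between 0.00668 and 0.158. Lrpprc and Slirp, which form a complex that stabilises mitochondrial mRNAs, had log2 fold changes of -0.22 (SE 0.08) and -0.38 (SE 0.15) and were not called (BH-adjusted p = 0.109 and 0.154 with edgeR's quasi-likelihood test). Lrpprc had 153, 156 and 159 CPM in Ctrl and 150.0, 135 and 119 CPM in the libraries labelled cKO. It passed the threshold in 2 of 15 alternatives, with the length trend removed and without library 1 labelled cKO (log2 fold change -0.30). Without library 3 labelled cKO its log2 fold change was -0.14. The log2 fold change of Slirp lay between -0.50 and -0.22 over all alternatives, and Slirp passed the threshold in 1 of 15.

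Of 14 genes for processing and tRNA maturation, 1 was called lower (3.79% of all genes tested were), Nsun2, a tRNA cytosine methyltransferase. It had 291, 288 and 287 CPM in Ctrl and 243, 253 and 206 CPM in the libraries labelled cKO, without overlap (log2 fold change -0.30, SE 0.07, BH-adjusted p = 0.0198 with edgeR's quasi-likelihood test). The call was lost without TMM factors (log2 fold change -0.24, adjusted p = 0.0979), without Ctrl library 3 (-0.31, adjusted p = 0.0569) and without library 3 labelled cKO (-0.22, adjusted p = 0.0631, all from edgeR's quasi-likelihood test). Over all alternatives adjusted p lay between 0.000595 and 0.0979. None of 18 genes for rRNA modification and ribosome assembly was called with edgeR or DESeq2 (1 with an unadjusted p under 0.05, lower). Of 10 upstream regulators of mitochondrial biogenesis, 1 was called lower (again against 3.79%), Myc, a transcription factor gene of growth and proliferation, with 475, 482 and 515 CPM in Ctrl and 363, 386 and 387 CPM in the libraries labelled cKO (log2 fold change -0.37, SE 0.06, BH-adjusted p = 0.00170 with edgeR's quasi-likelihood test). Its call was kept in every alternative.

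Markers of cell types also moved between the groups. Of 9 granulocyte and monocyte markers 8 were tested, 7 were called lower and 1 (Itgam) higher in the libraries labelled cKO, against 3.79% and 3.88% of all genes tested. Their summed level was 3451, 2861 and 3360.4 CPM in Ctrl and 809.8, 629 and 509 CPM in the libraries labelled cKO, and most of it was Mpo (2933, 2299 and 2773 against 459.9, 354 and 265 CPM). Ly6g was at 0 in 5 libraries and at 0.140 CPM in the sixth. Procr, a marker of stem cells, had 5.59, 5.20 and 3.65 CPM in Ctrl and 13.4, 11.2 and 14.4 CPM in the libraries labelled cKO (log2 fold change 1.43, SE 0.19), and was called higher. Mecom, a transcription factor gene of stem cells, was also called higher, with 66.3, 66.1 and 60.3 CPM in Ctrl and 79.3, 88.6 and 95.3 CPM in the libraries labelled cKO (log2 fold change 0.45, SE 0.08). Both were singled out after their values were seen, and Kit, Ly6a, Cd34, Flt3, Slamf1 and Hlf, which also mark LSK cells, were not called and overlapped between the groups.

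In the lists for erythroid, megakaryocyte, and T and NK cells, 1 gene each was called lower and 0 higher, namely Klf1 among 8 erythroid (4 tested), Pf4 among 4 megakaryocyte (3 tested) and Nkg7 among 6 T and NK cell markers (2 tested), where 3.79% of all genes tested were called lower. The summed levels were 43.5, 33.9 and 61.2 CPM in Ctrl against 14.0, 17.9 and 19.4 CPM for the erythroid list, whose most abundant gene was Klf1, and 102, 109.8 and 128 against 80.9, 77.3 and 104 CPM for the megakaryocyte list, led by Itga2b. They were 43.9, 46.9 and 59.4 against 33.4, 28.3 and 24.9 CPM for the T and NK cell list, led by Nkg7. Cd3e, which defines T cells, was at no more than 0.0635 CPM in any library. Ighm, an immunoglobulin gene of B cells, was called lower, with 302, 431 and 194 CPM in Ctrl and 89.4, 121 and 70.4 CPM in the libraries labelled cKO (log2 fold change -1.72, SE 0.22). Among 6 B cell markers (3 tested) it was the 1 called lower, and 0 were called higher, against 3.79% and 3.88% of all genes tested. Ighm was singled out after its values were seen, and the other tested B cell genes, Cd79b (log2 fold change 0.16) and Ebf1 (-0.07), were not called. The part of the makeup of the cells in the lower mitochondrial mRNAs was not tested.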

How the data were processed

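LSK RNA of 3 Ctrl and 3 cKO mice was sequenced by the authors with single reads of 75 bases, aligned to GRCm38 with GSNAP 2015-12-31 and counted per gene with featureCounts 1.5.0 on Ensembl 81 models, on the strand of the gene, without reads that map to several places or touch several genes. The deposited values are raw counts, with no normalization. The deposited gene length in bases, of another unit, was used for levels per kilobase.

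From the counts, differences were computed with edgeR 4.0.16 (R 4.3.3) on all 6 libraries, with genes kept by filterByExpr, TMM factors, genotype as the only term, the quasi-likelihood test, and Benjamini-Hochberg adjustment over 15184 genes, with a threshold of 0.05. SE was derived from the fold change and the F statistic. DESeq2 1.42.0, other scalings and filters, a threshold of 0.01, library series, length trend (loess) and leaving out each mouse were alternatives. The procedure was tested on simulated data. Named were all rRNAs and mRNAs, tested tRNAs, nuclear copies, called genes of the lists and fixed transcription factors; other genes were named after their values were seen. Members and lists were chosen with earlier results of these data known.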

Additional observations from a re-analysis of the deposited data

How the results depend on the processing

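The number of mitochondrial genes called lower in the libraries labelled cKO was 3, and it was 5 with DESeq2, 8 without a filter on low counts, 0 without TMM factors, 0 at a threshold of 0.01, and between 0 and 7 when 1 mouse was left out. Over all genes, 575 of 15184 were called lower, 691 with DESeq2 and 356 without TMM factors. It was 873 of 25890 without a filter on low counts, and between 308 and 594 genes when 1 mouse was left out. Of the 73 nuclear genes for mitochondrial RNA and DNA and upstream regulators, 4 were called lower, 2 without TMM factors, 2 at a threshold of 0.01, and between 2 and 4 when 1 mouse was left out. Over all genes 1164 were called, but 604 without library 2 labelled cKO, 665 without Ctrl library 3 and 739 without library 3 labelled cKO, with fewer samples in each fit.

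The median log2 fold change of the mRNAs tested was -0.11, -0.05 without TMM factors and between -0.19 and -0.10 when 1 mouse was left out, and that of the 7 well covered mRNAs was -0.16, and -0.10 without TMM factors. For the tRNAs tested it was -0.79, -0.39 with library series as a covariate, -0.48 with the length trend removed and between -1.01 and -0.35 when 1 mouse was left out. Within library series 2, the log2 ratio of labelled cKO to Ctrl was -0.037 for the share of all 37 genes, -0.017 for rRNA and -0.18 for mRNA. Within series 1 it was 0.067 for the tRNA share and 0.008 for the share of the minus strand in mitochondrial counts, which was -0.12 over all libraries. The log2 ratio of mRNA to rRNA counts was -0.17, and -0.21 with mt-Co1 to mt-Nd4 left out.

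Levels per length in Ctrl were recomputed with other lengths, a pair of which were chosen after seeing the data. With windows not found in another gene as length, mt-Nd6 stood at 10.7% of mt-Cytb, mt-Co1 at 181% and mt-Nd4 at 73.5%, against 9.84%, 111% and 28.6% with the deposited length. With start positions free of other genes, mt-Nd4 stood at 30.4%, mt-Rnr1 at 2066% and mt-Rnr2 at 1467%.

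Some log2 fold changes near 0 or with few counts changed sign, and none of the changed values was called. With library series as a covariate, the value was -0.01 for mt-Rnr1, 0.05 for mt-Tq, 0.15 for mt-Co2 and -0.04 for Tfam. With the length trend removed it was 0.09 for mt-Tq, 0.08 for mt-Co2, 0.01 for mt-Nd6 and -0.03 for Tfam. Without TMM factors it was 0.05 for mt-Rnr2 and 0.06 for mt-Co2. For mt-Co3 it was -0.0018 with DESeq2 and -0.0024 with its size factors in edgeR. When 1 mouse was left out, the values ranged from -0.01 to 0.10 for mt-Rnr1, -0.02 to 0.01 for mt-Rnr2, -0.52 to 0.04 for mt-Tq, -0.56 to 0.07 for mt-Tm, -0.94 to 0.22 for mt-Ta, -0.45 to 0.23 for mt-Co2, -0.24 to 0.09 for mt-Atp6, -0.09 to 0.11 for mt-Co3, -0.20 to 0.04 for Polrmt, -0.09 to 0.12 for Tfam and -0.33 to 0.03 for Tfb2m. The cause was not tested. The tRNAs and 6 of the mRNAs had fewer than 1000 counts in every library, except mt-Tv, and the part of depth in their values was not tested.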
